A study of Mus musculus with 15 samples.

Results

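The early secretory pathway carries newly made proteins from the endoplasmic reticulum (ER) to the Golgi, and 40 mouse genes of its vesicle transport machinery were followed here across 5 groups of cultured B cells. The genes were taken by symbol from a list of COPII and COPI coat genes, cargo receptors and the SNAREs and tether that complete the step. All 40 were found among the 51912 gene identifiers of the deposited table, and all 40 passed the filter on low counts that left 15692 genes. The series holds 15 RNA-seq libraries, 3 biological replicates in each of 5 groups, from wild-type mice with no treatment recorded. In every group the cells had grown for 6 days with IL-4 (100 ng/ml) on 40LB cells, a fibroblast-derived feeder line that supports B cell growth. Unsorted cells harvested then form the day 6 bulk group (D6). The other 4 groups were taken off the feeder cells, left 2 days in unstimulated medium and sorted at day 8 as IgE PC, IgE iGC, IgG1 PC or IgG1 iGC, where PC are plasma cells and iGC is the labels' name for the cells that were not. The sort was made on cultured cells, so the groups describe this culture and not plasma cells of a tissue. Whether the replicates came from separate mice is not given in the sources used here, so p-values measure the spread between these libraries.

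COPII coats form at ER exit sites and bud vesicles that carry cargo forward, and COPI coats return escaped ER proteins and machinery from the Golgi. Cargo receptors and p24 proteins link soluble or membrane-anchored cargo to the coats, KDEL receptors bring back ER chaperones, and SNAREs and tethers join the vesicle to its target. Plasma cells secrete antibody in bulk and are known for an expanded ER and secretory apparatus.

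The labels were checked against transcripts. Of all reads counted to Ighe or Ighg1, Ighe took 98.5% to 98.6% in IgE PC and 85.7% to 87.8% in IgE iGC. It took 1.71% to 2.73% in IgG1 PC and 4.74% to 5.74% in IgG1 iGC. The iGC groups thus held more of the other isotype's transcript than the PC groups, and the source of it was not tested. The summed level of 8 plasma cell markers was 17100 to 19500 CPM (counts scaled to the size of each library) in IgE PC and 9540 to 13900 in IgG1 PC, against 580 to 1090 in the other 9 libraries. Total counts ranged from 17.7 M to 54.1 M per library. The IgG1 PC libraries stood apart from one another: 39 members without the sparse Kdelr3 had a median coefficient of variation of 12.2% there, against 2.48% to 3.95% in the other groups, and replicate 1 was the highest of the 3 for 30 of the 39. That replicate also held 21.7% of its counts in immunoglobulin genes, against 15.3% and 16.1% in replicates 2 and 3, and results that turn on it are given without it as well. In bulk RNA, a lower share of a cell type and less of a transcript per cell cannot be told apart.

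Promoter sequence was available for 34 members, with 37 promoters in all (RefSeq, GRCm38.p6, 250 bases before to 50 after the start). The 8-base motif TGACGTGG, known as the unfolded protein response element and recognised by XBP1 and ATF6, was searched on both strands. Its 5-base core ACGTG, which it contains, was searched as well. TGACGTGG was found in 6 of the 37 member promoters (16.2%), against 0.676% of all 32851 promoters of that length. ACGTG was found in 22 of 37 (59.5%), against 19.6% of all. The set of all promoters was not limited to genes expressed here and was not matched to the members for base composition. The part of these in the differences was not tested. Of 64 promoters of other early secretory pathway genes, a list described at the end, 5 held TGACGTGG and 23 held ACGTG. The composite ER stress elements, CCAAT and CCACG with 9 bases between (ERSE) and ATTGG and CCACG with 1 base between (ERSE-II), were found in 0 of 37, against 0.119% and 0.0365% of all promoters. The members with TGACGTGG were Sec24d, Kdelr3, Stx5a, Sec23a, Copb1 and Copb2. The 4 of them with the largest rises from iGC to PC, averaged over the isotypes, are shown. They were picked by their rise, so they cannot show that the motif goes with a large rise, which was not tested. Capitals mark TGACGTGG or its reverse complement, and each sequence is read 5′ to 3′ along the gene.
Sec24d: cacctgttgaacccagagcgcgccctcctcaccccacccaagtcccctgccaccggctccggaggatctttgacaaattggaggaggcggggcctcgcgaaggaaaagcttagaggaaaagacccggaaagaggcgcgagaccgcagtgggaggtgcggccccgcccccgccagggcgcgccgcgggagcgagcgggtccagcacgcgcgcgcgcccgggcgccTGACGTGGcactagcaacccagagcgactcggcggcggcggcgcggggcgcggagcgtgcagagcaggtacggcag
Kdelr3: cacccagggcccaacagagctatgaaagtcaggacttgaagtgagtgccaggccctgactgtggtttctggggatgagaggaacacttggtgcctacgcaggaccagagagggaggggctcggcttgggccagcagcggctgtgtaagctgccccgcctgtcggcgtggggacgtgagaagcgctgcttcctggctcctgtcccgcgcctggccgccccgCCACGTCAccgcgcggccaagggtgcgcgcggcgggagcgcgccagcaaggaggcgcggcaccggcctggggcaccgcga
Stx5a: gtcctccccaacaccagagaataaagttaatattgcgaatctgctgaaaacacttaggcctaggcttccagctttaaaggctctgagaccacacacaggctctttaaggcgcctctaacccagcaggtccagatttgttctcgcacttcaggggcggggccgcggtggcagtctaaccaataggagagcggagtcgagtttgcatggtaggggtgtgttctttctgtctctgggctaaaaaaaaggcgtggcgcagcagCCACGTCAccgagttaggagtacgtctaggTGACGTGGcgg
Sec23a: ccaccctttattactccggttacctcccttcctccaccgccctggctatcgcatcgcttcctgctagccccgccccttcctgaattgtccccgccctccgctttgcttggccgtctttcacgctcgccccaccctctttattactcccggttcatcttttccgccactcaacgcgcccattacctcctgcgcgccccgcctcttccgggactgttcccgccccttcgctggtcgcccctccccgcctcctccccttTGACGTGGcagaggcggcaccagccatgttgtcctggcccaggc
The stretches are chr3:123267246-123267545 (plus strand), chr15:79516158-79516457 (plus), chr19:8741174-8741473 (plus) and chr12:59011968-59012267 (minus), in that order. The motif began 26 bases before the start of Sec24d, 30 before that of Kdelr3 and 7 after that of Sec23a, and Stx5a held a copy on each strand, 10 and 40 bases after its start. These are matches of letters and describe no binding.

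Together the 40 members took up 1.07%, 1.06% and 1.06% of all counts in the IgE PC libraries and 0.792%, 0.753% and 0.744% in the IgG1 PC libraries. The share was 0.399%, 0.402% and 0.400% in IgE iGC, 0.394%, 0.397% and 0.399% in IgG1 iGC and 0.586%, 0.591% and 0.584% in D6. The iGC groups were lowest and overlapped, D6 lay above them, and both PC groups lay above D6 with IgE PC highest. The means were 1.06% ± 0.00954 in IgE PC and 0.763% ± 0.0258 in IgG1 PC (SD, n = 3 each). Immunoglobulin transcripts took up 20.4% ± 0.949 of an IgE PC library and 17.7% ± 3.51 of an IgG1 PC library. With these left out of the total, the members' share was 1.34% ± 0.0153 in IgE PC, 0.929% ± 0.0718 in IgG1 PC, 0.596% ± 0.00375 in D6, 0.407% ± 0.00162 in IgE iGC and 0.402% ± 0.00242 in IgG1 iGC (SD, n = 3 each), in the same order.

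**Figure D1:**
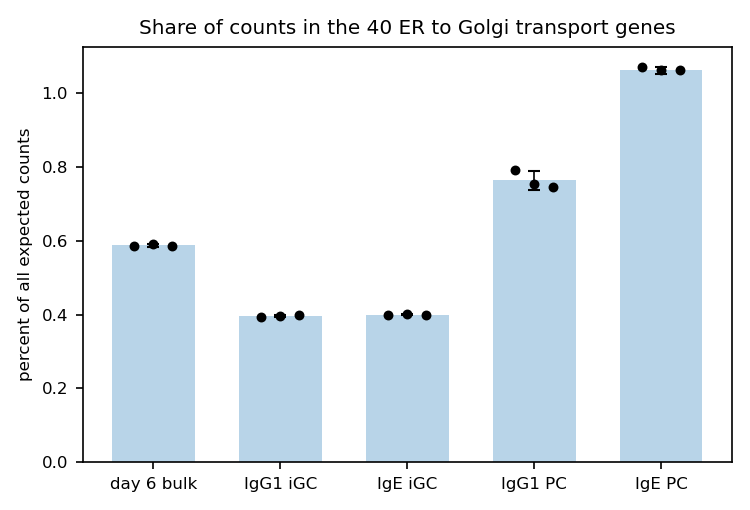
Percent of all expected counts that fell in the 40 ER to Golgi transport genes, for each group (bars, mean of 3 libraries; error bars, SD; points, libraries). The IgE PC libraries sit at 1.06% to 1.07%, above IgG1 PC at 0.744% to 0.792%, and the iGC libraries of both isotypes sit near 0.4%.

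The main comparison was that of plasma cells with iGC cells of the same isotype. In IgE, 39 of the 40 members were higher in PC and 0 were lower, with Sec24b not called; across all genes tested, 30.5% were called higher and 33.6% lower. A gene was called where its adjusted p was under 0.05 in edgeR's quasi-likelihood test. No member was lower at an unadjusted p under 0.05 either, and DESeq2 called 40 higher and 0 lower. The median change of the members was a log2 fold change of 1.85, from 0.16 to 5.67, beside -0.08 for all genes, and 35 of them rose at least 2-fold, as did 13.7% of all genes. In IgG1, 36 members were higher, 1 was lower (Sec24b) and 3 were not called (Tmed5, Tmed7 and Ergic2), beside 30.1% of all genes called higher and 29% lower. There the median was 1.14, from -0.27 to 5.62, beside 0.01 for all genes, and 25 members rose at least 2-fold, against 14.1% of all genes. Every PC library lay above every iGC library for 40 of the 40 members in IgE, as for 33.7% of all genes tested. In IgG1 this held for 36 members, as for 30% of all genes. Sec24b lay below without overlap, as did 31.1% of all genes, and Tmed5, Tmed7 and Ergic2 overlapped.

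These counts used TMM scaling, which sets the typical gene near 0. Scaling by total counts moved the median of all genes to -0.55 in IgE and -0.22 in IgG1. The calls of all genes that were higher then fell from 47.6% to 23.3% of those called in IgE and from 50.9% to 32% in IgG1, and in limma on log2(TPM + 1) they were 15.5% and 13.6%. The members' counts under total-count scaling were 39 higher and 1 lower in IgE, and 36 higher and 3 lower in IgG1. By TPM they were 37 higher and 1 lower, and 30 higher and 2 lower. Relative to the median of all genes, the members' median was 1.92 higher in IgE and 1.12 higher in IgG1 under total-count scaling. A change of library scaling moves all genes by nearly the same amount. This difference could therefore hardly change, and it is no test of the scaling.

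**Figure D2:**
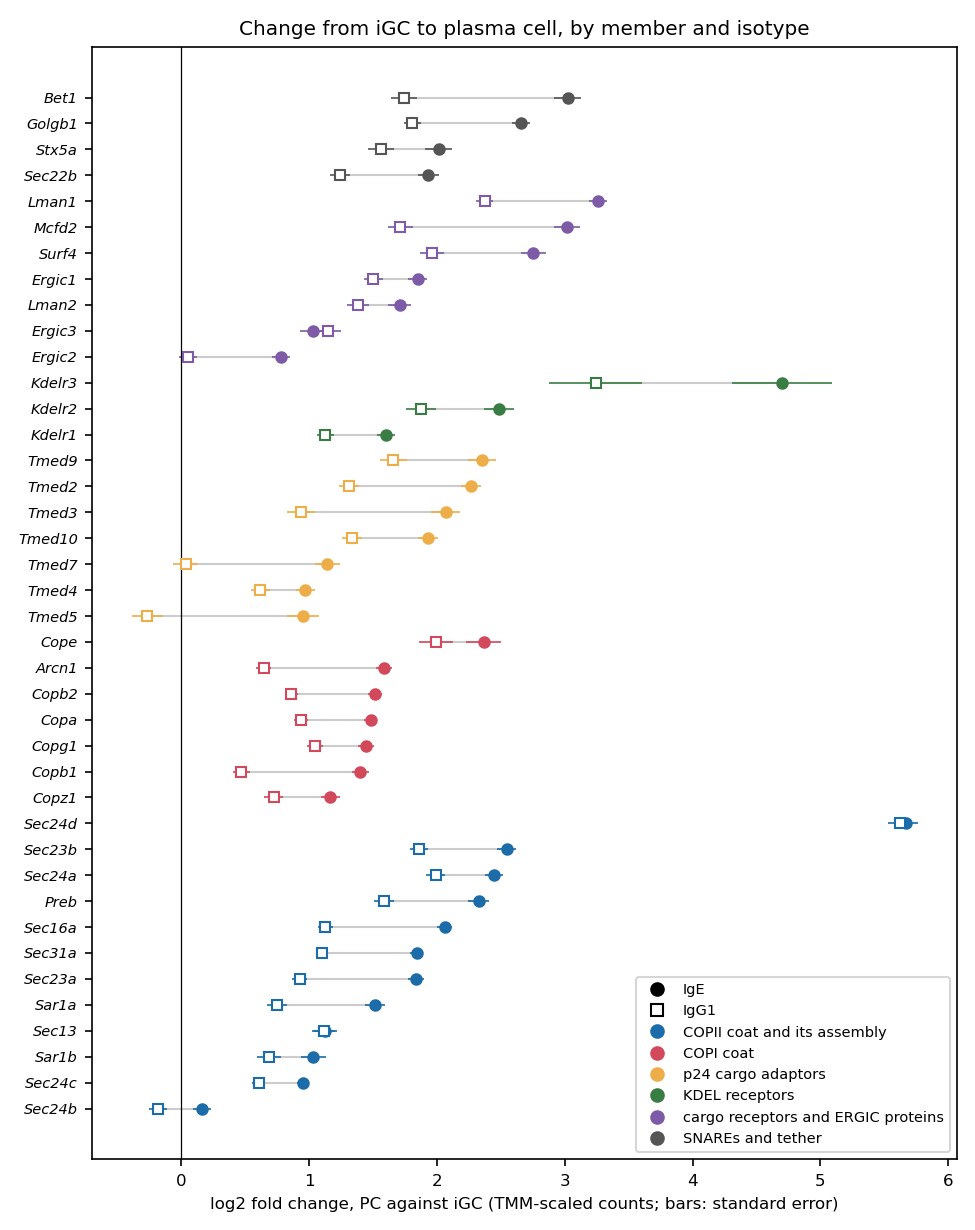
Change of each member from iGC to PC as a log2 fold change of TMM-scaled counts (x axis), with IgE as filled circles, IgG1 as open squares, bars for the standard error, and colours for the role in the pathway. Most filled circles lie to the right of their squares, and Sec24d lies far to the right of the other members in both isotypes, at 5.67 and 5.62.

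The COPII coat and its assembly factors comprised 12 members, of which 11 rose in IgE and 11 in IgG1. Sec24 proteins are the subunits that select cargo, and their 4 paralogs moved very differently. Sec24d (ENSMUSG00000039234; GRCm38 chr3:123267455-123365641, plus strand) measured 11.2, 11.7 and 11.8 CPM in IgE iGC and 578, 572 and 609 in IgE PC. It measured 4.90, 6.09 and 5.27 CPM in IgG1 iGC, 297, 249 and 257 in IgG1 PC and 56.5, 53 and 50.8 in D6. The 5 groups did not overlap, with both iGC groups lowest, D6 between and IgE PC highest. Sec24d rose by a log2 fold change of 5.67 in IgE (SE 0.09, edgeR adjusted p = 1.36e-15) and 5.62 in IgG1 (SE 0.09, edgeR adjusted p = 3.14e-15), the largest changes among the members in both.

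Sec24a measured 29.8, 30.6 and 28.7 CPM in IgE iGC and 163, 154 and 169.5 in IgE PC, and 34.4, 28.6 and 30.2 in IgG1 iGC and 124, 129 and 117 in IgG1 PC. Its PC libraries lay well above iGC in both isotypes, a rise of 2.44 in IgE and 1.99 in IgG1 (log2, SE 0.07 and 0.07). Sec24c, the most abundant paralog outside plasma cells, measured 192, 197 and 211 CPM in IgE iGC and 384, 389.9 and 387 in IgE PC, with 189, 190.2 and 196 and 302, 283 and 289 in the IgG1 groups. It rose less, by 0.95 and 0.60 on the log2 scale. Sec24b measured 76.8, 72 and 77.5 CPM in IgE iGC, 87.2, 79.3 and 86.3 in IgE PC, 79.8, 75.8 and 72.2 in IgG1 iGC and 59.3, 72 and 69.2 in IgG1 PC. It was highest in D6, at 97.8, 92.9 and 95.5 CPM, and its PC libraries lay a little above iGC in IgE and a little below in IgG1. Its log2 change was 0.16 in IgE (SE 0.07, edgeR adjusted p = 0.0549) and -0.18 in IgG1 (SE 0.07, edgeR adjusted p = 0.0326). The fall in IgG1 was lost without IgG1 PC replicate 1 (-0.11), without IgG1 iGC replicate 1 (-0.15) or 2 (-0.19), and in the fit of the compared groups alone (-0.17). In IgE it was called higher without IgE PC replicate 2 (0.20) and lower under total-count scaling (-0.31) and on the TPM scale (-0.66).

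**Figure D3:**
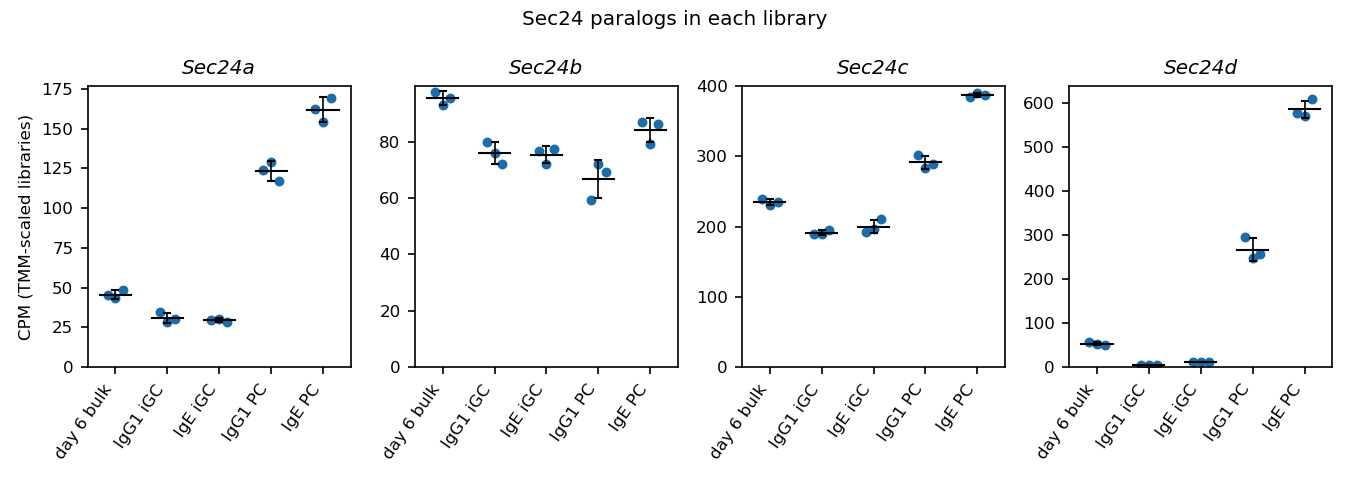
Level of the 4 Sec24 paralogs in each library, in CPM on TMM-scaled library sizes (points, libraries; lines, mean; bars, SD; n = 3), each panel on its own axis from 0. Sec24d runs from 4.90 to 11.8 CPM in iGC to 572 to 609 in IgE PC, while Sec24b lies between 59.3 and 97.8 CPM in all libraries.

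On the length-corrected TPM scale, which allows paralogs to be compared, Sec24d made up 53.6% ± 0.895 of the summed Sec24 level in IgE PC and 39.6% ± 2.05 in IgG1 PC. It made up 14.8% ± 0.651 in D6, 4.29% ± 0.418 in IgE iGC and 2.26% ± 0.147 in IgG1 iGC (SD, n = 3 each). Sec24c went the other way, from 58.6% ± 0.776 in IgE iGC to 28% ± 0.941 in IgE PC and from 57.5% ± 2.54 in IgG1 iGC to 34.2% ± 0.135 in IgG1 PC. Sec24b went from a share of 29% to 7.47% in IgE and from 31.9% to 11.8% in IgG1, while the summed level of the set went from 122 to 297 TPM in IgE and from 121 to 204 in IgG1. By TPM, Sec24d was the main Sec24 transcript in both kinds of plasma cell and the smallest of the 4 in both kinds of iGC cell. In CPM, which is not corrected for length, Sec24c lay above Sec24d in every IgG1 PC replicate. The lead of Sec24d in IgG1 PC thus depended on the scale, while in IgE PC it held on both.

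Of the Sec23 pair, the inner-coat partners of Sec24, Sec23b measured 51.9, 52.1 and 53 CPM in IgE iGC, 309, 297 and 311 in IgE PC, 51.6, 51.7 and 53.3 in IgG1 iGC and 218, 179 and 172 in IgG1 PC. Sec23a measured 24.5, 25.8 and 25.5, 89.5, 86.7 and 94.3, 27.2, 24.8 and 24.7 and 50, 48.8 and 47.1 CPM in the same groups. Both rose without overlap, Sec23b by 2.55 in IgE and 1.86 in IgG1 and Sec23a by 1.84 and 0.93 (log2). Sec23b was the larger of the pair in every group, with 77.7% of their summed TPM in IgE iGC, 85% in IgE PC, 76.8% in IgG1 iGC and 87% in IgG1 PC.

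Sar1 GTPases start coat assembly, and Preb is the exchange factor that loads them. Sar1a measured 98.1, 97.2 and 100.1 CPM in IgE iGC and 279, 273 and 292 in IgE PC, and 89.8, 98.6 and 103 and 188, 157 and 144 in the IgG1 groups. Sar1b measured 34.6, 33.8 and 28.1 and 66.5, 59.3 and 72.2 CPM in IgE and 32.7, 31.9 and 34.1 and 61.3, 50.1 and 47.8 in IgG1. Both rose in both isotypes, Sar1a by 1.52 and 0.75 and Sar1b by 1.03 and 0.69 (log2, IgE and IgG1). Preb rose by 2.33 and 1.59, the exit-site scaffold Sec16a by 2.06 and 1.12, and the outer-coat subunits Sec31a by 1.84 and 1.10 and Sec13 by 1.13 and 1.11. Sec13, which also serves in the nuclear pore, was the COPII member that rose most nearly alike in both. This turned on IgG1 PC replicate 1: without it, the rise of Sec13 was called larger in IgE, as given below. Preb shares 1575 exonic bases with Abhd1 on the opposite strand, and whether the authors' counting used the strand is not given in the sources used here.

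**Figure D4:**
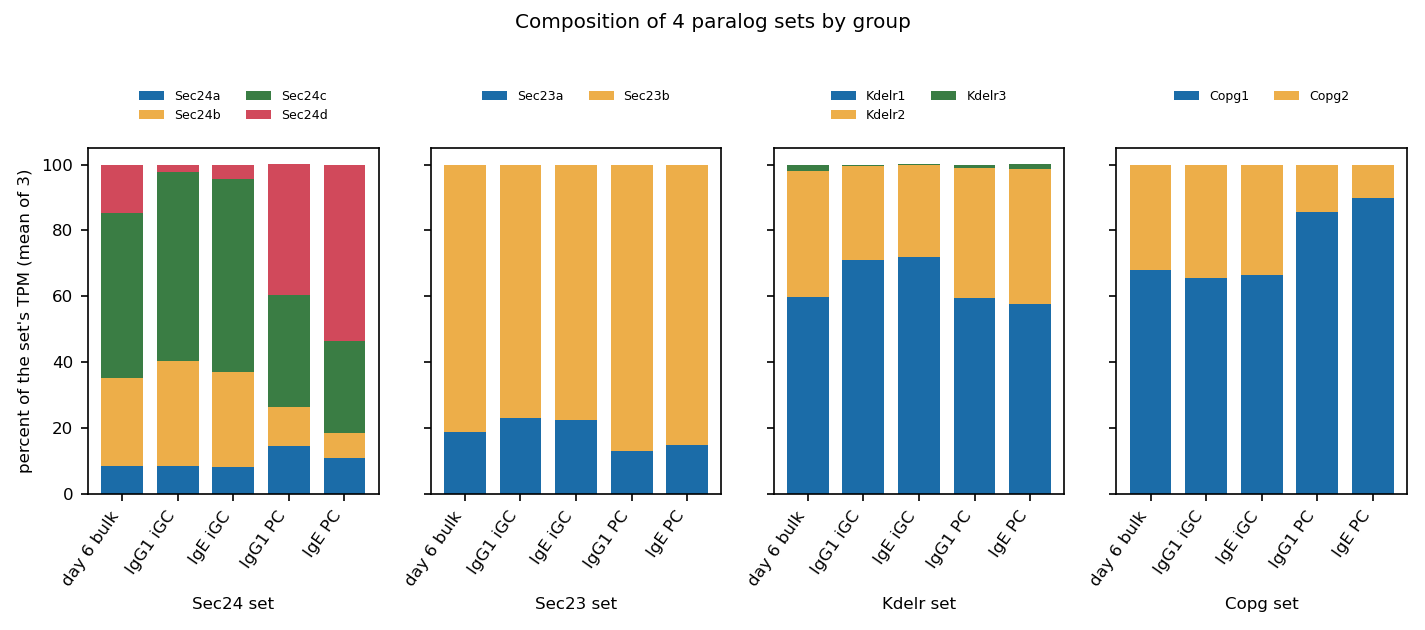
Make-up of 4 paralog sets in each group, as percent of the summed TPM of the set (mean of 3 libraries); Copg2 is the only gene drawn that is not among the 40. Sec24d (red) grows from 2.26% and 4.29% in iGC to 39.6% and 53.6% in PC, while the Sec23 pair keeps Sec23b at 76.8% or more in every group.

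The COPI coat was represented by 7 members, and all 7 rose in both isotypes. Cope, the epsilon subunit of coatomer, rose most, from 64.1, 61.5 and 55.4 CPM in IgE iGC to 309, 315 and 311 in IgE PC and from 58.5, 57.3 and 57.5 in IgG1 iGC to 302, 186 and 202 in IgG1 PC. The IgE PC libraries were nearly identical, while IgG1 PC replicate 1 lay far above the other two. Its log2 change was 2.37 in IgE (SE 0.13, edgeR adjusted p = 4.51e-10) and 1.99 in IgG1 (SE 0.13, edgeR adjusted p = 8.2e-09). Copa, Copb1, Copb2, Copg1, Copz1 and Arcn1, the other coatomer subunits, rose by 1.17 to 1.58 in IgE and by 0.47 to 1.05 in IgG1 (log2). Copg1 has a paralog outside the set, Copg2, which fell from 44.5, 40.8 and 43.6 to 26.9, 27.2 and 25.9 CPM in IgE and from 44.1, 46.4 and 46.6 to 25.2, 34.1 and 32.1 in IgG1. Copg1 accordingly made up 89.9% of the pair's TPM in IgE PC and 85.5% in IgG1 PC, against 66.5% and 65.6% in iGC. On the opposite strand, Copg2 shares 912 exonic bases with Mest and Copg1 shares 941 with Gm26636. As for Preb, whether the counting used the strand is not known here. By TPM the IgG1 changes of Copb1 and Arcn1 were -0.10 and -0.02.

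The p24 family, transmembrane adaptors that cycle between ER and Golgi, gave 7 of 7 members higher in IgE PC and 5 of 7 in IgG1 PC. Tmed9 rose most in both. It measured 82.1, 79.5 and 74.8 CPM in IgE iGC and 402, 397 and 409 in IgE PC, and 71.1, 76 and 73.1 and 289, 203 and 203 in the IgG1 groups. The log2 change was 2.35 in IgE (SE 0.11, edgeR adjusted p = 2.83e-11) and 1.66 in IgG1 (SE 0.11, edgeR adjusted p = 3.91e-09), with no overlap in either. Tmed2, the most abundant member of all 40 in every group on the TPM scale, rose by 2.26 and 1.31, Tmed10 by 1.93 and 1.34, and Tmed4 by 0.97 and 0.62 (log2, IgE and IgG1).

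Tmed3, Tmed5 and Tmed7 were among the 5 members with the largest called difference in change between the isotypes. Tmed3 measured 20.6, 18.7 and 16.5 CPM in IgE iGC and 75.7, 78.4 and 81.4 in IgE PC, and 17.3, 20.1 and 18.5 and 43.4, 30.4 and 33.5 in the IgG1 groups, a rise in both that was larger in IgE. Tmed5 measured 123, 136 and 111 and 247, 199 and 269 CPM in the IgE groups and 137, 126 and 142 and 108, 135 and 94.5 in the IgG1 groups. The IgE PC libraries lay above all iGC libraries, while the IgG1 groups overlapped. Tmed7 measured 104, 109 and 88.8 and 223, 192 and 251 CPM in IgE and 111, 109.9 and 113 and 105, 129.6 and 108 in IgG1, the same pattern. In IgG1 the log2 change was -0.27 for Tmed5 (SE 0.12, edgeR adjusted p = 0.0754) and 0.04 for Tmed7 (SE 0.10, edgeR adjusted p = 0.778). Without IgG1 PC replicate 2, the highest of its group for both, Tmed5 was called lower (-0.43). Tmed7 shares 838 exonic bases with Ticam2 on the same strand and had fractional counts in 13 libraries, so its counts rest in part on how reads were divided.

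KDEL receptors all rose in both isotypes. Kdelr3, the least abundant of the 40 in every group, had 7, 9 and 1 counts in the IgE iGC libraries and 144, 140 and 138 in IgE PC, with 7, 10 and 10 in IgG1 iGC and 96, 89 and 90 in IgG1 PC. In CPM these were 0.159, 0.250 and 0.0517, 4.18, 4.42 and 4.81, 0.172, 0.268 and 0.290 and 3.36, 1.72 and 1.94, and D6 had 1.32, 2.18 and 2.44. PC lay far above iGC in both isotypes, at a low level throughout. Its log2 rise was 4.70 in IgE (SE 0.39, edgeR adjusted p = 3.26e-08) and 3.24 in IgG1 (SE 0.37, edgeR adjusted p = 2.37e-06). Kdelr2 measured 27.8, 29.5 and 31.1 CPM in IgE iGC, 164, 163 and 167 in IgE PC, 30.3, 29.8 and 28.2 in IgG1 iGC and 138, 90.2 and 96.8 in IgG1 PC, a rise of 2.48 and 1.88. Kdelr1 measured 65.3, 64.3 and 62.4, 186, 193 and 204, 59.5, 62.7 and 63.8 and 149.5, 122 and 135 CPM in the same groups, a rise of 1.60 and 1.13 (log2). Kdelr1 was the main receptor in every group, and Kdelr2 made up 28.1% of the set's TPM in IgE iGC and 40.8% in IgE PC, with 28.8% and 39.5% in the IgG1 groups.

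Among 7 cargo receptors and proteins of the ER-Golgi intermediate compartment (ERGIC), 7 rose in IgE and 6 in IgG1. Lman1, the lectin that with Mcfd2 carries coagulation factors among other cargo, rose most in both isotypes. It measured 61.8, 60 and 56.8 CPM in IgE iGC and 584, 546 and 583 in IgE PC, and 58.6, 56 and 57.9 and 328, 296 and 272 in the IgG1 groups. Its log2 rise was 3.26 (SE 0.07, edgeR adjusted p = 1.02e-14) in IgE and 2.38 (SE 0.07, edgeR adjusted p = 2.38e-13) in IgG1. Mcfd2, its soluble partner, measured 16.9, 15.5 and 16 CPM in IgE iGC and 134, 129 and 129 in IgE PC, against 16.3, 17.4 and 16.7 and 66.3, 51.3 and 48 in IgG1. The iGC levels of Lman1 and Mcfd2 overlapped between isotypes, and for both genes the IgE PC libraries lay far above those of IgG1 PC.

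Surf4, a receptor for many soluble cargoes, rose by 2.75 in IgE and 1.96 in IgG1, the lectin Lman2 by 1.71 and 1.38, and Ergic1 by 1.85 and 1.50 (log2). Ergic2 rose in IgE (0.78) and not by the test in IgG1 (0.05, SE 0.07, edgeR adjusted p = 0.555). Ergic3 rose by 1.03 in IgE and 1.15 in IgG1. Measured in TPM, Ergic2 was no longer called in IgE (0.13) and was called lower in IgG1 (-0.39).

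The 3 SNAREs and the tether rose in both isotypes. Bet1, an ER-Golgi SNARE, measured 15.4, 13.6 and 12.9 CPM in IgE iGC and 114, 101 and 128 in IgE PC, with 13.1, 13.7 and 14.6 and 50.9, 47.8 and 40 in the IgG1 groups. Its log2 rise was 3.02 in IgE (SE 0.11, edgeR adjusted p = 1.17e-12) and 1.74 in IgG1 (SE 0.10, edgeR adjusted p = 1.25e-09), with no overlap. Golgb1, which encodes the Golgi tether giantin, measured 106, 104 and 106 and 689, 684 and 616 CPM in IgE and 103, 87 and 86.5 and 312, 336 and 321 in IgG1. It rose by 2.66 and 1.81, the largest rise of this class in IgG1 (log2, edgeR adjusted p = 9.05e-12). Sec22b rose by 1.93 and 1.24 and Stx5a by 2.01 and 1.56.

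Plasma cells of the 2 isotypes were then set against each other. In IgE PC, 38 members were higher than in IgG1 PC and 0 were lower, beside 27.4% of all genes called higher and 30.7% lower; Sec13 and Ergic3 were not called. None was lower at an unadjusted p under 0.05 in edgeR, and DESeq2 called 38 higher and 0 lower. The members' median difference was 0.69 (log2), beside -0.05 for all genes, and ranged up to 1.31 for Bet1. Every IgE PC library lay above every IgG1 PC library for 37 members, as for 28% of all genes; Sec13, Ergic3 and Sar1b overlapped. For all genes, calls higher in IgE PC were 47.2% of those called, but 23.8% under total-count scaling, 28.4% with total counts without immunoglobulin genes and 32.7% on the TPM scale, where the members gave 33, 34 and 34 higher and 2 (Sec13 and Ergic3), 0 and 0 lower. Ergic1, higher by 0.23 in the TMM fit, stood at -0.02 under total-count scaling and -0.06 on the TPM scale. Of the 8 plasma cell markers 6 were higher in IgE PC and 0 lower, with Xbp1 (0.01) and Prdm1 (0.19) not called. Their summed CPM did not overlap between the isotypes (17100 to 19500 against 9540 to 13900), and their median difference was 0.74. The 8 B cell markers summed to 3810 to 4030 CPM in IgE PC and 5060 to 5310 in IgG1 PC, and 3 were lower in IgE PC and 0 higher. Of 10 fibroblast markers 8 could be tested, and 7 of these were lower in IgE PC than in IgG1 PC, with a median of -2.21 (log2). The same number, 7 of 8, were higher in IgG1 PC than in IgG1 iGC, with a median of 1.82, and their sum was 22 to 36.6 CPM in IgE PC and 66.4 to 195 in IgG1 PC. The part of the plasma cell, B cell and feeder cell content of the sorted libraries in these differences was not tested.

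The interaction, the log2 change from iGC to PC in IgE minus that in IgG1, was called for 34 members, all in the direction of a higher change in IgE, beside 19.8% of all genes called in that direction and 23.1% in the other. The median over the members was 0.69 (log2), beside -0.06 for all genes. By role, 9 of 12 COPII, 6 of 7 COPI, 7 of 7 p24, 2 of 3 KDEL receptor, 6 of 7 cargo receptor and ERGIC, and 4 of 4 SNARE and tether members were called. The largest called value was that of Mcfd2 at 1.30 (SE 0.14, edgeR adjusted p = 3.46e-06), then Bet1 at 1.28 (SE 0.14, edgeR adjusted p = 5.76e-06). Tmed5 followed at 1.22 (edgeR adjusted p = 6.56e-05), Tmed3 at 1.13 (edgeR adjusted p = 4.24e-05) and Tmed7 at 1.11 (edgeR adjusted p = 1.93e-05). The Tmed5 value was 0.27 by TPM and not called. No member was called in the other direction, and 0 had an unadjusted p under 0.05 there in edgeR; DESeq2 also called 0. Over all members the highest value was that of Kdelr3, which was not called, and the lowest was that of Ergic3, at -0.12 (edgeR adjusted p = 0.555). This contrast uses the same PC libraries as the direct comparison of isotypes, so the pair are not separate evidence.

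Sec24d, Sec13, Ergic3, Sar1b, Cope and Kdelr3 were the members without a called interaction. For Sec24d, the member with the largest rise, the interaction was 0.04 (SE 0.12, edgeR adjusted p = 0.796), and the gene was higher in IgE than in IgG1 by 1.09 in iGC cells and by 1.13 in PC (log2). Sar1b (0.34, edgeR adjusted p = 0.0554), Cope (0.38, edgeR adjusted p = 0.111), Kdelr3 (1.46, edgeR adjusted p = 0.0539) and Sec13 (0.01, edgeR adjusted p = 0.949) were the others beside Ergic3. Without IgG1 PC replicate 1 these 4 were called, at 0.45, 1.79, 0.62 and 0.17 for Sar1b, Kdelr3, Cope and Sec13, and the number of members called was 38. Sec13 and Ergic3 were then also higher in IgE PC than in IgG1 PC (0.17 and 0.18). Under total-count scaling 25 interactions were called higher and 1 lower, Ergic3 (-0.34), and the calls of all genes in the IgE direction were 21.6% of those called against 46.1%; with total counts without immunoglobulin genes they were 26.5%, with 26 members higher, and on the TPM scale 30.2%, with 29.

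The iGC cells of the isotypes, sorted on the same day as the plasma cells, were compared in the same way. Between IgE iGC and IgG1 iGC, 1 of the 40 members was called, Sec24d, with the other 39 not called, beside 1.99% of all genes called higher and 1.88% lower. At an unadjusted p under 0.05 in edgeR 2 members were higher and 0 lower, and DESeq2 called 1 higher and 0 lower. Sec24d, with the library values given above, was higher in IgE iGC by 1.09 (log2, SE 0.09, edgeR adjusted p = 8.12e-06), and the 3 libraries of each group did not overlap. The members' median difference was 0.02. Of the 8 plasma cell markers 4 were higher in IgE iGC and 0 lower, namely Tnfrsf17 (2.84), Bhlha15 (1.74), Jchain (1.42) and Prdm1 (0.59), while Sdc1, Xbp1, Irf4 and Slamf7 were not called. Their sum was 896 to 1020 CPM in IgE iGC and 580 to 645 in IgG1 iGC. The part of plasma cell transcripts in the Sec24d difference was not tested.

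The day 6 culture lay between iGC and PC for most members. Against D6, 34 members were lower and 2 higher in IgE iGC, beside 36.3% of all genes called lower and 32.8% higher. In IgG1 iGC 33 were lower and 2 higher, beside 36% and 32.4%. The medians were -0.56 and -0.54 (log2), beside -0.04 for all genes in both. The 2 that were higher were Stx5a (0.81 in IgE and 0.62 in IgG1) and Tmed4 (0.67 and 0.61). Stx5a measured 50.1, 46.9 and 46.1 CPM in D6, 80, 81.8 and 89.5 in IgE iGC, 69.4, 71.7 and 78.4 in IgG1 iGC, 331, 328 and 354 in IgE PC and 262, 192 and 195 in IgG1 PC, so this SNARE was lowest in D6, higher in both iGC groups and highest in both PC groups, with no overlap between D6 and any other group. The largest falls from D6 to iGC were those of Kdelr3 (-3.52 and -3.02), Sec24d (-2.21 and -3.30) and Ergic1 (-1.31 and -1.20). D6 was unsorted, and 10 fibroblast markers summed to 211 to 344 CPM there against 29.5 to 70 in iGC, 22 to 36.6 in IgE PC and 66.4 to 195 in IgG1 PC; their sum was led by Col1a1, Col1a2 and Fn1, and 0 to 2 of the 10 had no count in a library. The part of feeder cell transcripts in the D6 levels was not tested.

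In IgE PC 39 members were higher than in D6 and 1, Sec24b, was lower, beside 36.9% of all genes called higher and 39.5% lower, with a median of 1.31 (log2). The Sec24b fall (-0.18) was lost when any of D6 replicate 1 or 3 or IgE PC replicate 2 or 3 was left out (-0.18 to -0.13). In IgG1 PC 32 were higher and 4 lower, beside 35.9% and 36%, with a median of 0.73. The 4 that were lower in IgG1 PC than in D6 were Tmed7 (-0.59), Sec24b (-0.51), Tmed5 (-0.44) and Ergic2 (-0.29), and in each of them the 3 IgG1 PC libraries lay below the 3 of D6, as for 36.8% of all genes. All libraries of IgE PC lay above those of every other group for 36 members, the exceptions being Ergic3, Sar1b, Sec13 and Sec24b, and for 17.3% of all genes. The order of iGC below D6 below both PC groups, with no overlap, held for 27 members and for 3.08% of all genes.

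The comparison with D6 depended on scale. Total-count scaling gave 34 members higher and 1 lower in IgE PC and 25 higher and 6 lower in IgG1 PC. On the TPM scale the median of all genes was -0.72 for IgE PC and -0.59 for IgG1 PC, and the members split into 29 higher and 6 lower in IgE PC and 17 higher and 14 lower in IgG1 PC. Among all genes called, 48.3% were higher in IgE PC and 50% in IgG1 PC in the TMM fit, against 26.8% and 35% under total-count scaling and 17.6% and 17.4% on the TPM scale.

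**Figure D5:**
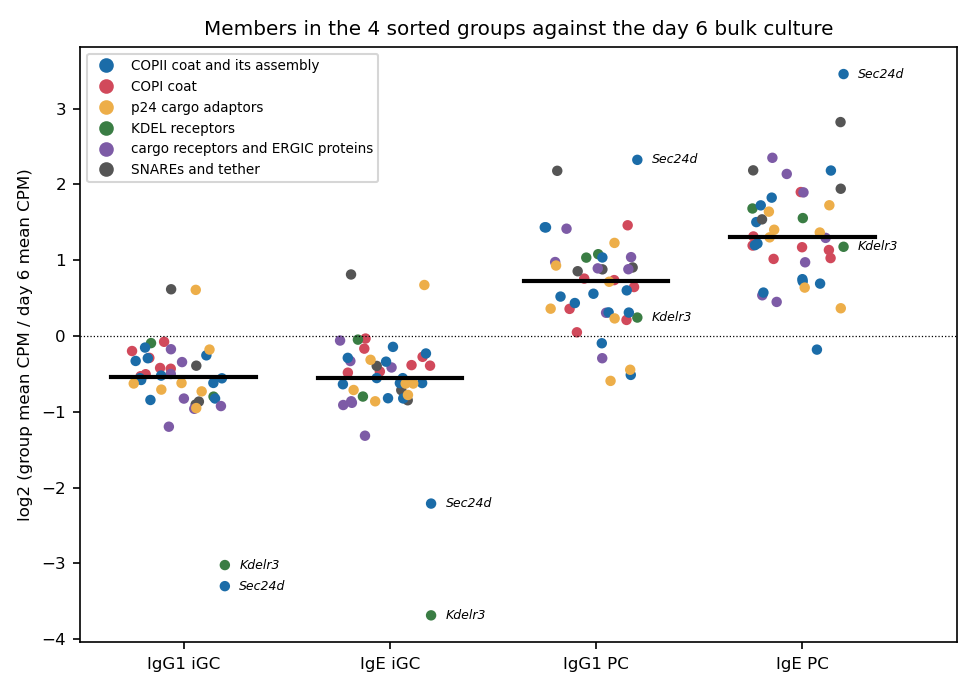
Each member's mean level in the 4 sorted groups relative to its mean in D6, as log2 of the ratio of mean CPM (points, members, coloured by role; black line, median of the 40). Most points lie below 0 in both iGC groups and above 0 in both PC groups, with the IgE PC median above that of IgG1 PC and Sec24d at the top of both PC groups.

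Other genes of the early secretory pathway formed a list of 59 chosen by role, of which 56 passed the count filter, with Tmed11, Creb3l3 and Creb3l4 below it. From iGC to PC 38 rose and 7 fell in IgE (median 0.62, log2), beside 30.5% of all genes called higher and 33.6% lower. In IgG1 34 rose and 8 fell (median 0.42), beside 30.1% and 29%. These counts depended on scale, as did those of all genes. By TPM 24 were higher and 27 lower in IgE and 20 higher and 25 lower in IgG1. Of all genes called on that scale, 15.5% were higher in IgE and 13.6% in IgG1. Under total-count scaling 28 were higher and 21 lower in IgE, and 29 and 16 in IgG1. There 23.3% of all genes called were higher in IgE and 32% in IgG1. The largest rise in both was Creb3l2, an ER-anchored transcription factor known to drive Sec23a in cartilage, from 8.41, 8.83 and 8.42 to 327, 329 and 336 CPM in IgE and from 5.84, 6.33 and 6.34 to 211, 199 and 193 in IgG1. It rose by 5.27 and 5.03 (log2). Of the 56 genes tested, it was also the only 1 called higher in IgE iGC than in IgG1 iGC (0.47, edgeR adjusted p = 0.000285). Of all genes, 1.99% were called higher there, and on the TPM scale 0 of the other pathway genes were. Creb3l2 and Sec24d had the same order over the 5 groups, with no overlap between neighbours for either gene. Both were picked as the largest rise of their lists, and how many genes share this exact order was not counted. The wider order of iGC below D6 below both PC groups, with no overlap, held for 27 members and 3.08% of all genes. A link between Creb3l2 and Sec24d or Sec23a was not tested. The related Creb3l1 rose by 2.71 in IgE and 1.94 in IgG1, to 5.49, 5.91 and 5.61 CPM in IgE PC and 2.90, 2.84 and 2.61 in IgG1 PC.

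Arfgap3, which acts on the COPI GTPase Arf1, rose by 3.79 in IgE and 2.95 in IgG1, and Copz2, a paralog of Copz1, by 3.29 and 2.51. The p24 paralog Tmed6 rose in IgG1 alone by the test: it measured 0.368, 0.483 and 0.521 CPM in IgG1 iGC and 4.02, 2.78 and 2.18 in IgG1 PC, but 0.523, 0.916 and 0.671 in IgE iGC and 0.493, 0.663 and 0.349 in IgE PC. Its interaction was -3.17 (SE 0.44, edgeR adjusted p = 5.07e-05), the reverse of the 34 members called. Of those that fell, Sec16b, a paralog of Sec16a, had 28, 26 and 15 counts in IgE iGC and 4, 3 and 0 in IgE PC (log2 -3.21). Cnih1, a cargo receptor, fell by 0.75 in IgE and 0.61 in IgG1, Tmed8 by 0.70 and 0.77, and Copg2 by 0.69 and 0.58, while Trappc2, a tether subunit, fell in IgG1 by 0.81 and measured -0.01 in IgE (log2).

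Levels of different members can be compared only per length. By this measure, in TPM, Tmed2 was the highest member in every group, at 490.4 TPM in D6, 249.7 in IgE iGC, 242.2 in IgG1 iGC, 700 in IgE PC and 412.8 in IgG1 PC. Kdelr3 was the lowest in every group, from 0.18 TPM in IgE iGC to 3.13 in IgE PC. The median member stood at 61 TPM in IgE iGC, 61.1 in IgG1 iGC, 93.5 in D6, 86.4 in IgG1 PC and 114 in IgE PC.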

How the data were processed

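PolyA RNA was sequenced as 76 bp single-end, strand-specific reads, per the labels. The submitters' processing notes name cutadapt 1.9.1, STAR 2.5.2a, RSEM 1.3.0 and DESeq2 1.12.3 and the build GRCm38; whether counting used the strand, and the annotation release, are not given in the sources used here. The deposited table gives, per the file headers, RSEM's expected counts, which divide reads that fit several genes, and TPM, which the authors' RSEM run scaled for length and library total.

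Expected counts were rounded and filtered with filterByExpr (minimum count 10, minimum total 15). One mean per group was fitted to 15 libraries with edgeR 4.0.16 in R 4.3.3 (TMM, robust glmQLFit, glmQLFTest, Benjamini-Hochberg adjustment over 15692 genes), with limma 3.58.1 and DESeq2 1.42.0 as alternatives. Standard errors are the log2 fold change divided by the square root of F, which is approximate. CPM used TMM-scaled library sizes. Replicates of every group differed by more than sampling noise, with a chi-square per degree of freedom of 4.82 to 105. On simulated counts with 200 of 15692 genes changed 2-fold between IgE PC and IgE iGC, 166 were recovered (83%), with 11 false calls. The simulation gave every gene the same dispersion and, but for the changed genes, the same mean in all groups. It lacked the many changed genes, the large immunoglobulin share and the uneven replicate spread of these data. Its error rates therefore do not carry over to the fit reported.

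Gene positions came from GENCODE vM21. Of the members, 14 share exonic bases with another gene on either strand and 5 had fractional counts. Members and lists were chosen with earlier results of these data known. Library values were given for the members with the largest called rise and fall in each of 6 classes and in each isotype, the 5 largest interactions and the Sec23, Sec24, Sar1 and Kdelr paralogs, and the 4 largest rises and falls of other pathway genes were named. Values of Stx5a, Creb3l2, Creb3l1, Tmed6, Copg2 and Sec16b by library were chosen after they were seen. Protein sequences were not used here.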

Additional observations from a re-analysis of the deposited data

Results flagged for a closer look

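For 34 members the isotypes differed in their change from iGC to PC, by the interaction term of the edgeR fit (adjusted p under 0.05). Of the 56 other pathway genes tested, 32 were called with a higher and 1 with a lower change in IgE, beside 19.8% and 23.1% of all genes. Under total-count scaling 21 were higher and 12 lower, and by TPM 21 and 4. Of all genes called, 21.6% and 30.2% were higher on these 2 scales, against 46.1% in the fit reported. Of the other pathway genes called in that fit, 4 are listed last. Those 4 are not all that are named in the text: Creb3l1 was also called with a higher change in IgE. Each value below is the log2 change in IgE minus that in IgG1. Among COPII members these were Sar1a (0.77), Preb (0.74), Sec16a (0.94), Sec23a (0.91), Sec23b (0.68), Sec24a (0.46), Sec24b (0.34), Sec24c (0.35) and Sec31a (0.74). Among COPI members they were Copa (0.55), Copb1 (0.93), Copb2 (0.65), Copg1 (0.40), Copz1 (0.45) and Arcn1 (0.94). The p24 members were Tmed2 (0.95), Tmed3 (1.13), Tmed4 (0.35), Tmed5 (1.22), Tmed7 (1.11), Tmed9 (0.69) and Tmed10 (0.59). Of the KDEL receptors there were Kdelr1 (0.48) and Kdelr2 (0.61), and of the cargo receptors and ERGIC proteins Surf4 (0.79), Lman1 (0.88), Lman2 (0.33), Mcfd2 (1.30), Ergic1 (0.35) and Ergic2 (0.73). The SNAREs and tether were Sec22b (0.69), Stx5a (0.45), Bet1 (1.28) and Golgb1 (0.85). The 4 other pathway genes were Tmed6 (-3.17), Arfgap3 (0.84), Trappc2 (0.80) and Creb3l2 (0.24). Every value listed but that of Tmed6 was positive. Groups of 3 libraries were too small to test for a library far from the rest.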

How the results depend on the processing

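The 8 alternatives and the omission of each library were run for every count and each printed gene value. Of 3152 such gene values, 3010 kept their direction and their side of the threshold, 69 lost and 30 gained a call, and 43 changed sign; where no value or construction is named, the cause was not tested. Replicate numbers did not pair the libraries: deviations of same-numbered libraries correlated at -0.195 to 0.091 over 30 pairs of groups, and 0 exceeded 0.1. With the replicate block, 39 members were higher in IgE PC than in iGC and 36 in IgG1, 34 interactions were called, and no count of calls moved by more than 1.5 times. Leaving out 1 library gave 39 to 40 members higher and 0 to 0 lower in IgE, 36 to 36 higher and 0 to 2 lower in IgG1, 37 to 40 higher between PC of the isotypes, 1 to 2 between iGC, and 33 to 38 interactions. Against D6 it gave 0 to 1 lower in IgE PC and 4 to 5 in IgG1 PC. The smallest library, with 17.7 M counts, and the 1 to 10 counts of Kdelr3 in iGC limit the precision for low genes.

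Counts of members that moved by more than 1.5 times were these. Lower in IgE PC than in iGC were 1 under total-count scaling and 1 on the TPM scale. Lower in IgG1 PC than in iGC were 3 under total-count scaling, 0 with total counts without immunoglobulin genes, 0 with only the groups compared, where fewer samples entered the fit, and 2 on the TPM scale. Lower in IgE PC than in IgG1 PC were 2 under total-count scaling, and 1 interaction was lower. By TPM 6 were lower in IgE PC than in D6, and 17 higher and 14 lower in IgG1 PC than in D6. The members' share of counts without immunoglobulin genes, a denominator chosen after seeing the data, was 0.596% in D6, 0.407% in IgE iGC, 1.34% in IgE PC, 0.402% in IgG1 iGC and 0.929% in IgG1 PC. Leaving out a replicate, also added later, gave 1.06% to 1.07% in IgE PC and 0.748% to 0.773% in IgG1 PC.

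Among the other pathway genes, those higher in PC than in iGC fell on the TPM scale to 24 in IgE and 20 in IgG1. On that scale 15.5% and 13.6% of all genes called were higher. Lower were 21 (total counts), 12 (without immunoglobulin genes) and 27 (TPM) in IgE, and 16 (total counts) and 25 (TPM) in IgG1. Lower in IgE PC than in IgG1 PC were 2 with DESeq2, 2 with RLE size factors, 17 under total-count scaling, 15 without immunoglobulin genes, 2 with no filter, 2 with only the groups compared, 10 on the TPM scale and 1 to 5 leaving out a library. Between iGC of the isotypes 0 were higher on the TPM scale and 1 lower with only the groups compared. Interactions were 21 higher and 12 lower under total-count scaling, 9 lower without immunoglobulin genes, 21 higher and 4 lower on the TPM scale, and 1 to 4 lower leaving out a library. By TPM 9 were higher in IgE iGC than in D6, 7 in IgG1 iGC, 19 in IgE PC and 10 in IgG1 PC, and 25 and 32 were lower in IgE PC and IgG1 PC. Total-count scaling gave 21 lower than D6 in IgE PC and 21 in IgG1 PC, and leaving out immunoglobulin genes gave 13 in IgE PC.

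Values that changed sign lay near 0 in the fit reported or moved with the scale. Under total-count scaling these were Sec24b in IgE (-0.31), Tmed7 (-0.19) and Ergic2 (-0.18) in IgG1, Sec13 (-0.23) and Ergic1 (-0.02) between PC, and the interactions of Sec24d (-0.19) and Sec13 (-0.22). With total counts without immunoglobulin genes they were Sec24b in IgE (-0.0045), Sec13 between PC (-0.18) and the interactions of Sec24d (-0.15) and Sec13 (-0.18). On the TPM scale they were Sec24b in IgE (-0.66) and between PC (-0.11), in IgG1 Sec24c (-0.00068), Copb1 (-0.10), Arcn1 (-0.02), Tmed7 (-0.19) and Ergic2 (-0.39), between PC Sec13 (-0.12) and Ergic1 (-0.06), and the Sec13 interaction (-0.11). Trappc2 in IgE was 0.0037 with DESeq2, 0.01 with RLE size factors and 0.01 with only the groups compared, where the Sec13 interaction was -0.00034. Ergic3 between PC was 0.05 with DESeq2, 0.04 with RLE size factors and 0.01 with the replicate block. Leaving out 1 library, Trappc2 in IgE ranged from -0.07 to 0.04, Tmed7 in IgG1 from -0.08 to 0.09, Ergic2 in IgG1 from -0.04 to 0.12, Sec13 between PC from -0.07 to 0.17, Ergic3 between PC from -0.11 to 0.18, and the interactions of Sec24d from -0.05 to 0.13, of Sec13 from -0.08 to 0.17 and of Ergic3 from -0.23 to 0.07. The interaction of Lman2 (0.33) was lost in 10 of the 12 omissions of a library of the 4 groups (0.23 to 0.35), and that of Creb3l2 (0.24) without IgE iGC replicate 1 (0.23) or IgG1 iGC replicate 2 (0.23) or 3 (0.22).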
